A study of Mus musculus with 6 samples.

Results

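Cd36 and 8 other scavenger receptor genes (Scarb1, Scarb2, Msr1, Marco, Colec12, Olr1, Stab1 and Cd5l) were followed in brown fat, the depot that burns lipid to make heat. The members were chosen by name, as all probes that the platform annotation assigns to these 9 genes, of 19056 named genes on the array. They carried 16 probes. RNA came from male C57BL6J mice of 3 months, fasted overnight, either wild type or Cd36 null, and each genotype was measured on 3 Illumina bead arrays. The null mice lack Cd36, per the labels, which name no other allele or agent and do not say whether the deletion is limited to a cell type. Nothing in the labels says that the 3 samples of a genotype came from separate animals, so a p-value here measures only how these samples spread, and that spread may be technical.

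Scavenger receptors are membrane proteins that bind modified lipoproteins, fatty acids, dying cells and other polyanionic or lipid ligands. Cd36, Scarb1 and Scarb2 form class B, with a large extracellular or luminal loop held by membrane spans at both ends. Cd36 takes up long-chain fatty acids and oxidised lipoproteins and is abundant in adipocytes, capillary endothelium and macrophages. Msr1, Marco and Colec12 are class A receptors with a collagen-like stalk, Olr1 is the lectin-like receptor of oxidised LDL, Stab1 is a large receptor of macrophages and sinusoidal endothelium, and Cd5l is a secreted protein of macrophages.

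Of the 16 probes, 6 were measured well enough to test, and these belonged to Scarb1, Scarb2 and Stab1. Stab1 was 2.28-fold higher and Scarb2 1.52-fold higher in null tissue by 1 probe each, while their other probes and that of Scarb1 did not pass. In wild type tissue the called probe of Stab1 was the dimmest of that gene's probes, and the brightest did not pass. No probe was called lower. The remaining 10 probes, that of Cd36 among them, did not pass the detection filter. Of these, 8 were detected on no array, and those of Cd36 and Marco were each detected on 1 wild type array. A probe was tested when its detection p-value, the chance that a blank control bead is as bright, was under 0.05 on at least 3 of the 6 arrays. In all, 17912 probes passed that filter and were fitted together with limma. A call is a Benjamini-Hochberg adjusted p under 0.05 over all of them. Over all tested probes, 5.36% were called higher and 2.85% lower in null tissue, 8.21% in either direction. The 2 calls among 6 probes stand beside that background, and they are no count over all members, since the filter kept 6 probes of 16.

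**Figure D1:**
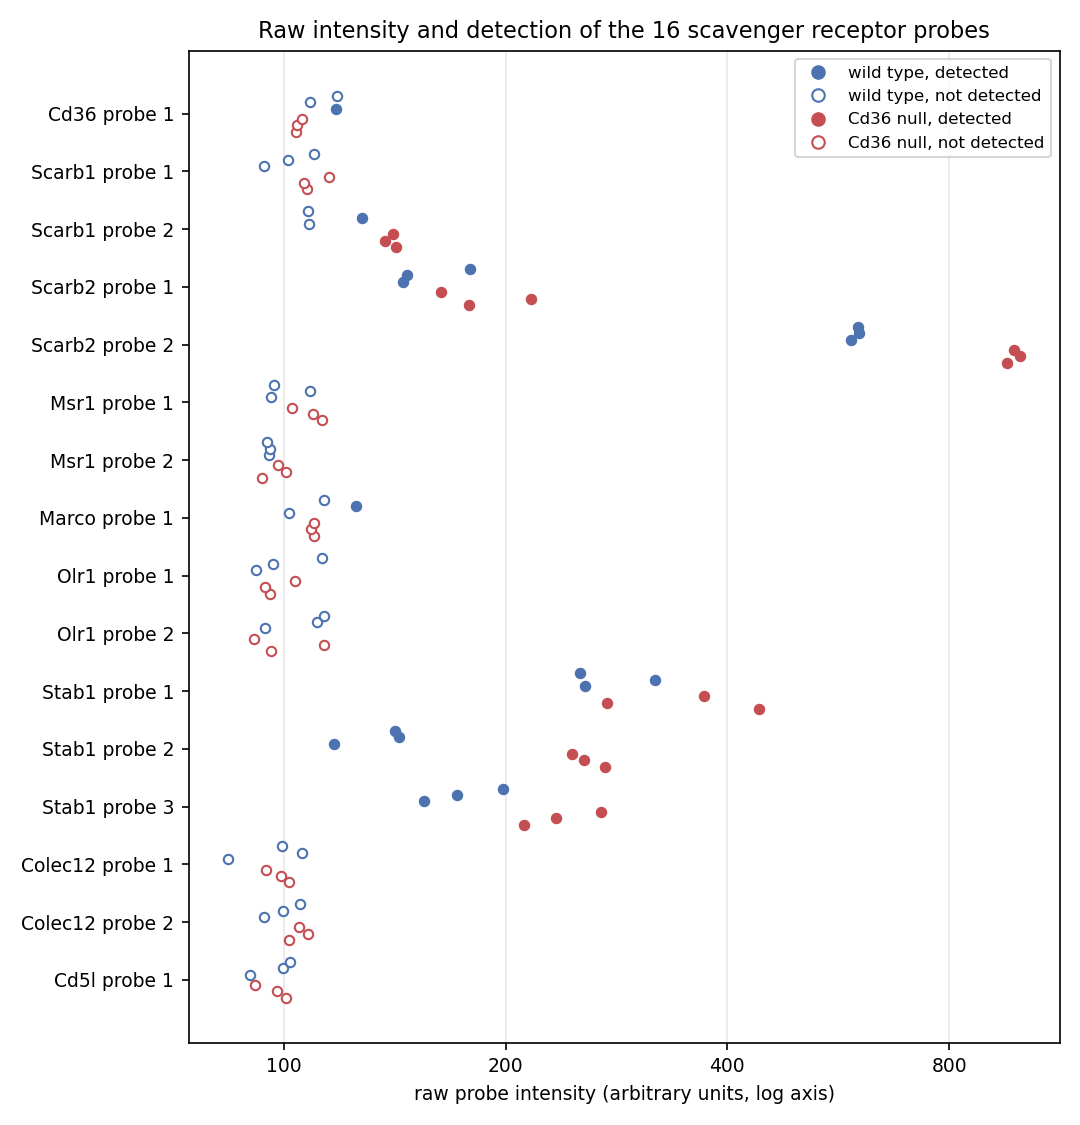
Raw intensity of the 16 probes (arbitrary units, log axis) on the 3 wild type arrays (blue) and the 3 Cd36 null arrays (red), 1 point per array, filled where the detection p was under 0.05. Probes of Cd36, Msr1, Marco, Olr1, Colec12 and Cd5l and the first probe of Scarb1 lie between 84.1 and 125.3 on every array, and those of Scarb2 and Stab1 are detected on all arrays.

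The wild type arrays as a whole were alike, and the null arrays varied more. Detected probes numbered 17021 to 17125 per wild type array and 18236 to 19287 per null array. Pairs of arrays of the same genotype had r of 0.974 to 0.992 over the tested probes, and pairs of unlike genotype 0.962 to 0.973. The lowest r within a genotype was that of null replicates 1 and 3. The hepatocyte marker list stood 3.79, 1.25 and 1.53 log2 above the wild type mean on null replicates 1, 2 and 3, and at -0.27, -0.14 and 0.41 on wild type replicates 1, 2 and 3. Skeletal muscle markers stood at 0.52, -0.04 and -1.87 on null replicates 1, 2 and 3. In bulk tissue such as this, a change in the number of cells of a type and a change in RNA per cell cannot be told apart. Which cells or tissue the hepatocyte and muscle transcripts came from was not tested.

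Cd36, the targeted gene, was described first. Its only probe, ILMN_1232470, was read at raw intensities of 117.7, 108.5 and 117.9 on wild type replicates 1, 2 and 3. In null replicates 1, 2 and 3 it read 103.9, 104.1 and 105.8. The detection p was 0 on wild type replicate 1 and 0.45 and 0.12 on wild type replicates 2 and 3. The null arrays gave a detection p of 0.28 to 0.41. The raw intensities were lower on every null array, and only wild type replicate 1 stood above the blank beads by the detection p. On the log2 scale the wild type values were 6.27, 5.86 and 5.99 and the null values 5.85, 5.86 and 5.89, so the genotypes overlapped. The means were 6.04 ± 0.21 and 5.87 ± 0.02 (SD, n = 3). No lower bound on the difference is given, since wild type replicates 2 and 3 were themselves not detected. Without the detection filter the difference was -0.17 ± 0.11 (SE, n = 3 per genotype) with an adjusted p of 0.659 in limma. The probe was therefore no check of the genotype labels, and the sources used here do not give its place in the transcript or the deletion. Other probes for Cd36 may be among the 10374 probes of the value table that the annotation does not list.

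Promoter sequences, taken from RefSeq on GRCm38.p6, are shown for the targeted gene and for the pair of genes with a called probe, so that their start regions can be set side by side. Each runs 5′ to 3′ from 250 bases before the annotated start to 50 after it, and 6 of the 9 members had an entry. Capitals mark any match, on either strand, to 4 motifs: the E-box CACGTG, the core GAGGAA bound by the macrophage factor PU.1, the AP-1 site TGANTCA, and the DR1 element of PPAR and RXR, a direct repeat of AGGTCA spaced by 1 base. No matches overlapped each other.
Cd36 (chr5:17835847-17836146, minus strand): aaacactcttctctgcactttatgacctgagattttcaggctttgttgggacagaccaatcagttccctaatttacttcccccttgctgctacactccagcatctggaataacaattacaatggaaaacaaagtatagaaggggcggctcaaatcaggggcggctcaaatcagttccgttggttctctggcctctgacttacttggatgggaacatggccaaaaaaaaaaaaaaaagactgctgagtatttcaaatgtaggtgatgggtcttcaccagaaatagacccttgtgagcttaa
Scarb2 (chr5:92505608-92505907, minus strand): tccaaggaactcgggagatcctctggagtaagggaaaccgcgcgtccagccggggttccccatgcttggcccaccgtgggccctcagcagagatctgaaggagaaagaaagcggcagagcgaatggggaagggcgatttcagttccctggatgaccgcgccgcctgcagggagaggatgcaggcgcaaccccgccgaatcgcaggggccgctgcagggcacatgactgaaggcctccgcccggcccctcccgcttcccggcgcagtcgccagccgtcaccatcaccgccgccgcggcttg
Stab1 (chr14:31168592-31168891, minus strand): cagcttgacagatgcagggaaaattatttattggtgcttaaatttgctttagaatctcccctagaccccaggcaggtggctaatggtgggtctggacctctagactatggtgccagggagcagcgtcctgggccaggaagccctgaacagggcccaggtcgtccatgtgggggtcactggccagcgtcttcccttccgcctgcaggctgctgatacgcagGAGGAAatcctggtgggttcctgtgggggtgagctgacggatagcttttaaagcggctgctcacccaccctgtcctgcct
Stab1 held 1 PU.1 core, at 30 to 25 bases before the start, and 28.3% of all 32851 promoters of this length held 1 or more. Marco, Olr1 and Cd5l each held 1 too, and Olr1 also held 1 AP-1 site, a motif of 7.81% of promoters. Cd36 and Scarb2 held none of the 4. The E-box was present in 7.15% and the DR1 element in 0.0396% of promoters, and neither was present in the 6 entries. The window of Scarb2 was 67.3% G and C and that of Cd36 43%, against a median of 52.7% over all promoters.

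Scarb2 encodes LIMP-2, a lysosomal membrane protein that carries beta-glucocerebrosidase to lysosomes. Its second probe, ILMN_2907331, read 9.27, 9.11 and 9.15 log2 in wild type replicates 1, 2 and 3. In null replicates 1, 2 and 3 it read 9.73, 9.84 and 9.78. Every null array lay above every wild type array, with a gap of 0.46 log2 between the groups. Before normalisation the wild type intensities were 588.0, 603.5 and 601.2, in replicate order, and the null intensities 959.0, 998.9 and 981.0. The difference was 0.60 ± 0.12 log2 (SE, n = 3 per genotype, 95% interval 0.34 to 0.87, adjusted p = 0.0124 in limma). The call ended without wild type replicate 2 (difference 0.57, adjusted p = 0.0697) and without null replicate 2 (difference 0.57, adjusted p = 0.0586). Over 15 alternative settings the difference ranged from 0.56 to 0.74.

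The first probe of Scarb2, ILMN_1246340, has no transcript accession in the annotation and did not show the same difference. It read 6.80, 6.50 and 7.03 log2 in wild type replicates 1, 2 and 3. In null replicates 1, 2 and 3 it read 6.81, 7.30 and 6.70. The genotypes overlapped, with null replicate 2 highest and wild type replicate 2 lowest. The difference was 0.16 ± 0.19 (SE, 95% interval -0.26 to 0.58, adjusted p = 0.687 in limma), and it was -0.02 without null replicate 2. The second probe's difference exceeded that of the first by 0.44 log2, and an exact permutation test of the per-array difference between the probes gave a two-sided p of 0.2, where 0.1 is the smallest that 3 arrays against 3 allow.

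Stab1 encodes stabilin-1, a receptor that clears acetylated lipoproteins and the matrix protein SPARC from the surroundings of macrophages and endothelium. Its second probe, ILMN_2544343, read 6.26, 6.44 and 6.46 log2 in wild type replicates 1, 2 and 3. In null replicates 1, 2 and 3 it read 7.63, 7.60 and 7.49. The genotypes were separated by 1.02 log2. Before normalisation the wild type intensities were 117.0, 143.2 and 141.5, in replicate order, and the null intensities 273.2, 255.3 and 245.9, all detected. The difference was 1.19 ± 0.12 log2 (SE, n = 3 per genotype, 95% interval 0.91 to 1.46, adjusted p = 4.8e-04 in limma), and it ranked 94 of 17912 probes by p. It passed under all 15 alternatives, with a size between 0.82 without background correction and 1.83 with median scaling, which is over 1.5 times the main value. No single array decided it, since leaving out each in turn gave 1.12 to 1.23.

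The other probes of Stab1 were brighter than the called one in wild type tissue and gave smaller differences. Probe 3, ILMN_2727432, read 6.94, 6.87 and 7.25 log2 in wild type replicates 1, 2 and 3 and 7.15, 7.45 and 7.66 in null replicates 1, 2 and 3. Null replicate 1 lay below wild type replicate 3, so the groups overlapped. The difference was 0.40 ± 0.16 (SE, 95% interval 0.03 to 0.77, adjusted p = 0.19 in limma), and it passed only with array weights (adjusted p = 0.0278). The first probe, ILMN_1231355, which is annotated to a cDNA clone rather than a RefSeq transcript, read 7.88, 8.05 and 7.71 in wild type replicates 1, 2 and 3. In null replicates 1, 2 and 3 it read 8.47, 7.73 and 8.22, with null replicate 2 inside the wild type range. The difference was 0.26 ± 0.19 (SE, 95% interval -0.16 to 0.68, adjusted p = 0.471 in limma). The first probe was the brightest of Stab1, and the gene lists below are read by each gene's brightest tested probe.

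The probes of Stab1 thus disagree in size, and which transcripts each one reads was not tested. The second probe's difference exceeded that of probe 1 by 0.92 log2 and that of probe 3 by 0.79, with the per-array differences not overlapping between genotypes. An exact permutation test gave a two-sided p of 0.1 for each, the smallest that 3 arrays against 3 allow. Adjusted over the 4 pairs of probes compared in Scarb2 and Stab1, these became 0.2. Across the 6 arrays probes 2 and 3 correlated at 0.70 and probes 1 and 3 at 0.03, as a description of these arrays.

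**Figure D2:**
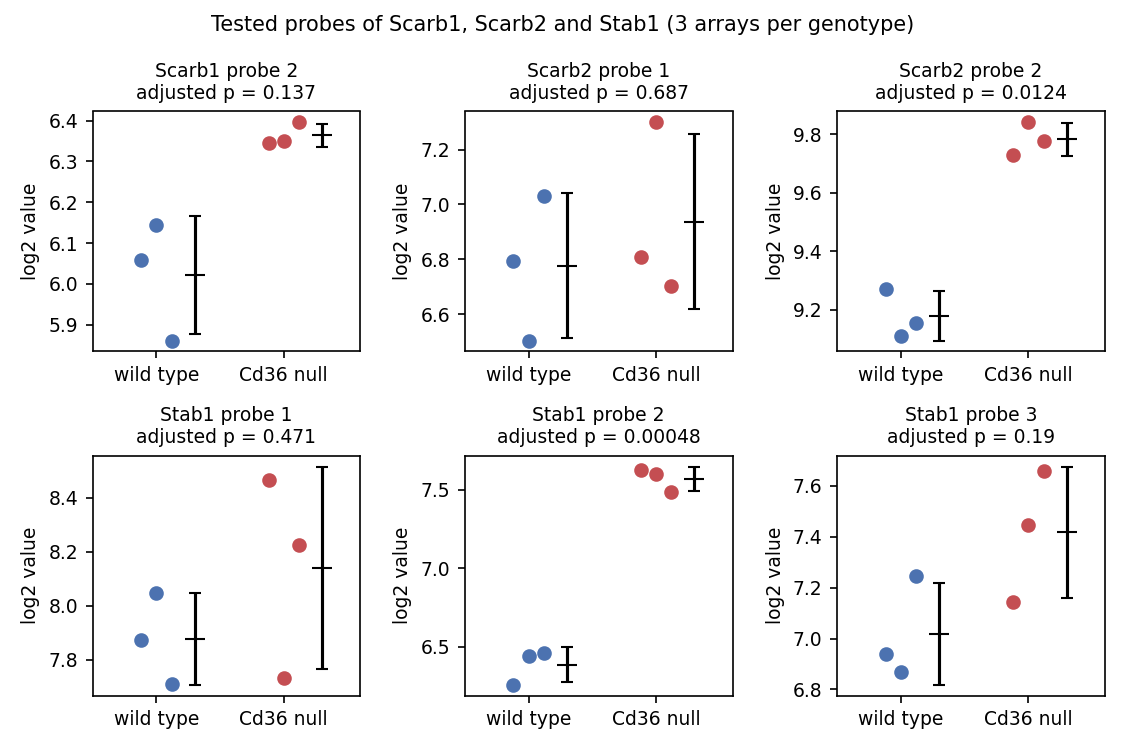
Log2 values of the 6 tested probes of Scarb1, Scarb2 and Stab1 on each array, with the mean and SD of each genotype beside the points (3 arrays each, y axes differ and do not start at 0). The second probes of Scarb1, Scarb2 and Stab1 are separated by genotype, and the other 3 overlap.

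Scarb1 encodes SR-BI, the HDL receptor, which takes cholesteryl esters from HDL into cells. Its second probe, ILMN_1223315, read 6.06, 6.14 and 5.86 log2 in wild type replicates 1, 2 and 3. In null replicates 1, 2 and 3 it read 6.34, 6.35 and 6.40. All null arrays lay above all wild type arrays by at least 0.20 log2. The probe was detected on 1 of 3 wild type and 3 of 3 null arrays, so it entered the test through the null group, and the size of its difference is uncertain. The difference was 0.34 ± 0.12 (SE, n = 3 per genotype, 95% interval 0.06 to 0.62, adjusted p = 0.137 in limma), short of the threshold. It was 0.69 with the smaller offset of 16 (adjusted p = 0.0744) and 0.81 with median scaling, where it passed (adjusted p = 0.0301). The first probe of Scarb1, ILMN_1218449, which is annotated to a cDNA clone, was detected on 0 of 6 arrays, with intensities from 94.0 to 115.1.

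Separation of the genotypes was frequent on these arrays. The second probes of Scarb2 and Stab1 were separated with the null arrays higher, as were 13.6% of all tested probes. Scarb1's second probe was separated too, but it entered the test through the null group. In either direction, 27.5% of tested probes were separated, with the null arrays lower in 13.8%. All tested probes together had a median of -0.04 log2. Scarb1 and Scarb2 lie on the chromosome of Cd36 in the RefSeq gene table, and whether alleles that flank the targeted locus touch their probes was not tested.

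**Figure D3:**
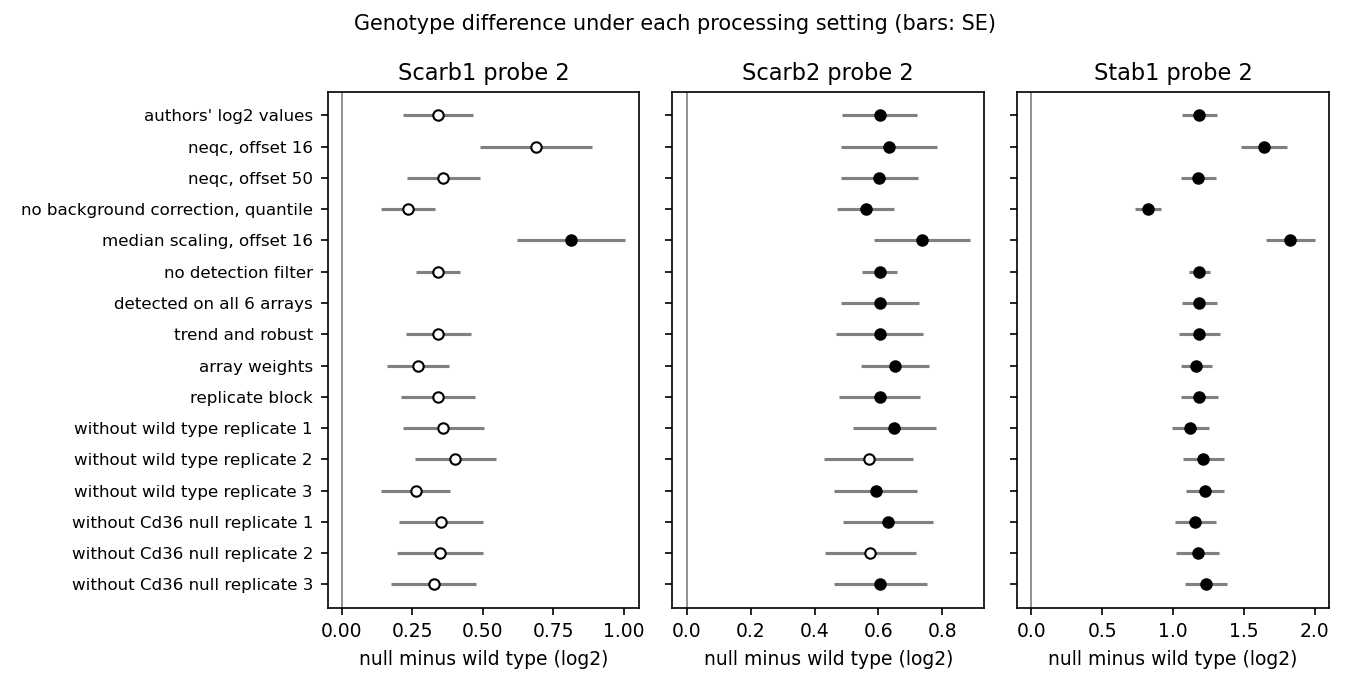
Log2 difference (null minus wild type) with its SE of the second probes of Scarb1, Scarb2 and Stab1 under the authors' log2 values and each alternative, filled where the adjusted p was under 0.05. Stab1 passes throughout, Scarb2 fails in 2 of 15 alternatives and Scarb1 passes in 1 of 14, as it could not be tested when detection on all 6 arrays was required.

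The probes of the class A receptors, Olr1 and Cd5l did not pass the detection filter. Msr1, the scavenger receptor A of macrophages, was read by 2 probes detected on 0 of 6 arrays. Its first probe had intensities of 96.2, 108.6 and 96.9 in wild type replicates 1, 2 and 3 and 112.8, 109.6 and 102.5 in null replicates 1, 2 and 3, and its second probe lay between 93.5 and 100.7. Both genotypes overlapped on both probes. Marco, a receptor of resident macrophages that binds bacteria, was detected on wild type replicate 2 alone, at an intensity of 125.3 and a detection p of 0.049. Its other arrays read 101.6 and 113.5 in wild type and 109.9, 108.7 and 110.0 in null tissue, so 1 wild type array stood apart from 5 at background.

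Colec12, a collectin-like receptor of vascular endothelium, was read by 2 probes between 84.1 and 107.8, detected on 0 of 6 arrays. Olr1, the receptor of oxidised LDL, was read by 2 probes between 91.0 and 113.3, also detected on 0 of 6 arrays. Cd5l, also named AIM, which tissue macrophages secrete and which adipocytes take up through Cd36, was read by 1 probe at 90.1, 99.7 and 101.9 in wild type replicates 1, 2 and 3 and at 100.7, 97.9 and 91.4 in null replicates 1, 2 and 3. It too was detected on 0 of 6 arrays. The 10 dim probes of the members, Cd36 included, were detected in 2 of 60 readings, and their differences lay between -0.17 and 0.08 log2. When all 45267 probes were tested without the filter, limma called 0 of these 10 at an adjusted p under 0.05, with adjusted p from 0.604 to 0.986. A signal at background gives no level of the transcript, so for these genes a difference was not detectable on this array.

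A wider list of scavenger receptors was set beside the members. Of 16 listed genes, 11 were tested, and 5 rose, 0 fell and 6 did not pass, with a median difference of 0.53 log2. Mrc1 and Cd14 are also among the macrophage markers below, Cd163 among those of liver-resident macrophages and Stab2 among endothelial markers. These lists are therefore not separate observations. Cd14 was named after its value was seen. Over all 10151 named genes, taken by their brightest tested probe, 6.36% rose, 2.91% fell and the median difference was -0.02. Mrc1, the mannose receptor of macrophages, rose by 1.12 ± 0.14 log2 (SE, adjusted p = 0.00119 in limma). Clec7a, the beta-glucan receptor Dectin-1, was detected on 0 of 3 wild type and 3 of 3 null arrays. Clec7a thus entered the test through the null group, and was at least 1.62-fold higher there (adjusted p = 0.00526). Its other tested probe differed by 0.52 and was not called. Scara3, a class A member, rose by 0.61 ± 0.13 (adjusted p = 0.0173), a call that ended without wild type replicate 2 (adjusted p = 0.09). The other 2 that rose, named after their values were seen, were Scara5, a ferritin receptor, by 0.57, and Cxcl16, a membrane-bound chemokine that binds oxidised lipoproteins, by 0.59. Their calls each ended without any 1 array but wild type replicate 3. The number that rose was 2 to 5 with 1 array left out. Stab2, also named after its value was seen, is the closest relative of Stab1 and a receptor of sinusoidal endothelium. It differed by -0.01 ± 0.13 (adjusted p = 0.972) from a signal detected on 2 of 3 arrays of each genotype.

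Genes that work with Cd36 or signal from it mostly did not pass the test. Of 21 listed genes, 17 were tested, and 3 rose, 0 fell and 14 did not pass (median 0.03 log2). Fcer1g, the signalling chain shared by Fc receptors and Cd36, rose by 1.57 ± 0.16 (SE, adjusted p = 5.11e-04 in limma). Tlr2, a toll-like receptor for which Cd36 is a co-receptor, rose by 0.87 ± 0.13 (adjusted p = 0.00269). Vav1, an exchange factor of blood cells, rose by 0.52 ± 0.13 (adjusted p = 0.0336), and its call ended without any 1 array but wild type replicate 3. Each of these genes is also expressed by macrophages. The caveolar genes Cav1, Cav2 and Cavin1 and the palmitoyltransferases Zdhhc4 and Zdhhc5, which act on Cd36 in adipocytes, did not pass, with differences from -0.43 to -0.08. These were named after their values were seen.

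Among transcription factors that control Cd36 and related receptors, 1 was called. Of 16 listed, 12 were tested, and 1 fell, 0 rose and 11 did not pass (median -0.17 log2). Pparg, the nuclear receptor that drives Cd36 in fat and macrophages, fell by 0.63 log2 (SE 0.16, adjusted p = 0.0417 in limma), with its 3 probes between -1.36 and -0.63 and all called lower. The call of its brightest probe ended without any 1 array but null replicate 3, and with the offset of 16 (adjusted p = 0.0828). Cebpa, an adipocyte factor, differed by -0.60 (adjusted p = 0.0588) and Ppara, the fasting-activated receptor, by -0.51 (adjusted p = 0.0789).

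Ligands and cargo of the receptors were measured beside them. Of 11 listed ligands, 7 were tested, and 3 rose, 0 fell and 4 did not pass (median 0.54 log2). Thbs2, a thrombospondin bound by Cd36, rose by 0.90 ± 0.11 (SE, adjusted p = 0.00122 in limma). Anxa1, a protein exposed by dying cells, rose by 0.54 ± 0.13 (adjusted p = 0.0331), a call that ended without any 1 array but null replicate 1. Apoa1, the protein of HDL that Scarb1 binds and a hepatocyte transcript, rose by 3.07 ± 0.75 (adjusted p = 0.0349), a call that ended without any 1 of the wild type arrays and with trend and robust estimation (adjusted p = 0.229). Apoa1 read 11.74 log2 on null replicate 1 against 8.21 and 8.53 on null replicates 2 and 3, and without null replicate 1 it differed by 1.95. Sparc, the matrix ligand of Stab1, differed by 0.34 ± 0.16 (adjusted p = 0.252). Of 9 genes of HDL handling, 4 were tested and 2 rose, namely Apoa1 and Abcg1. Abcg1, a cholesterol exporter, was detected on 1 of 3 wild type and 3 of 3 null arrays, so it entered the test through the null group and the size of its rise is uncertain. It rose by 0.77 ± 0.15 (SE, adjusted p = 0.0122 in limma), by 1.38 with the offset of 16 and by 1.497 with median scaling. Its call ended when replicate 1 or 2 of the wild type, or replicate 2 of the null, was left out. Pltp, the phospholipid transfer protein, differed by 0.62 (adjusted p = 0.0675).

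Lysosomal partners of Scarb2 were higher in part. Of 10 listed genes, 9 were tested, and 4 rose, 0 fell and 5 did not pass (median 0.33 log2). Npc1, the lysosomal cholesterol exporter, rose by 1.23 ± 0.14 (SE, adjusted p = 7.72e-04 in limma) by its brightest probe, although its 3 probes ran from -0.65 to 1.36 and all 3 were called, so they disagree in direction. Cd63, a tetraspanin of late endosomes, rose by 1.35 ± 0.17 (adjusted p = 0.00126), with its 3 probes between 0.79 and 1.35. Lamp1, the main lysosomal membrane glycoprotein, rose by 0.62 ± 0.13 (adjusted p = 0.0149), close to the 0.60 of Scarb2. Its call ended without wild type replicate 1, without null replicate 2 or with median scaling (adjusted p = 0.0589, 0.0612 and 0.0669). Psap, named after its value was seen, supplies the saposins that activate lysosomal hydrolases and rose by 0.45, a call lost without any 1 array. Lamp2 differed by 0.22 by its brightest probe, with 1 of its 5 probes called.

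**Figure D4:**
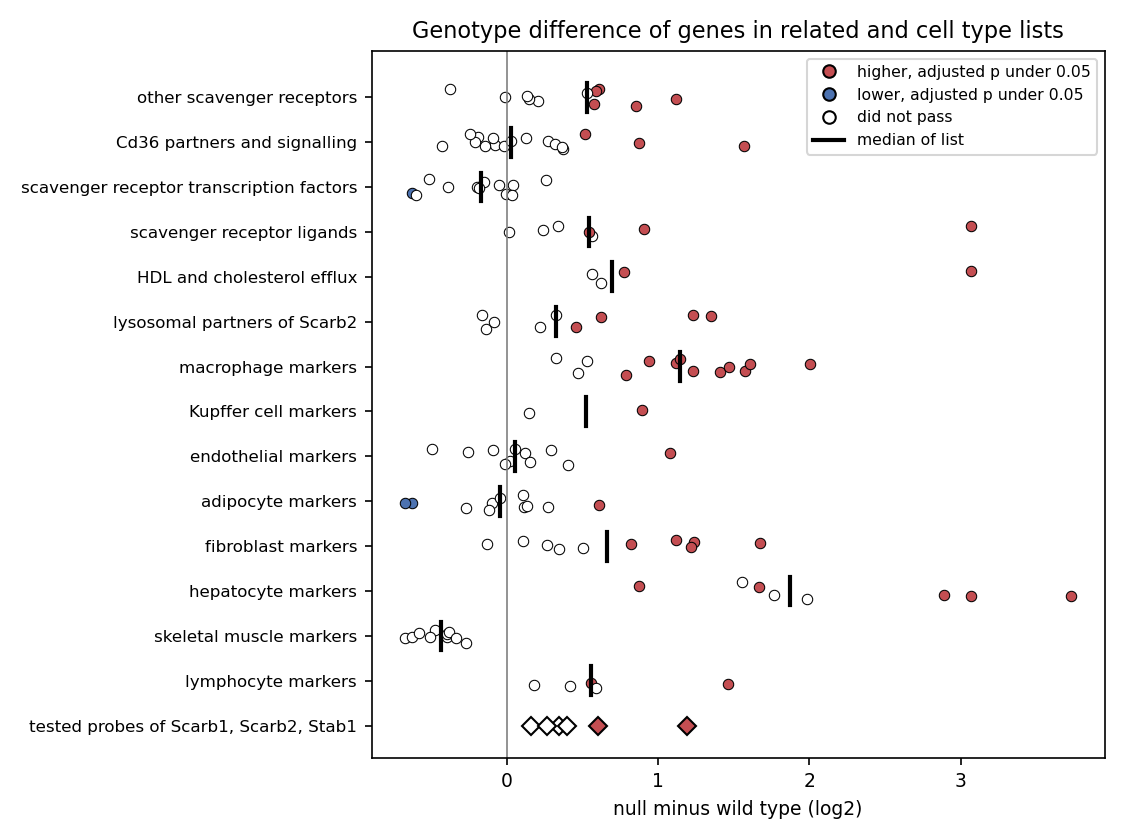
Log2 difference (null minus wild type) of each tested gene in the lists of related genes and cell type markers (points, by the brightest tested probe; bars are list medians), with the 6 tested member probes as diamonds. The called probes of Stab1 and Scarb2 lie within the range of the macrophage markers (0.32 to 2.00). They also lie within those of fibroblast markers (-0.13 to 1.67), lymphocyte markers (0.18 to 1.46) and lysosomal partners (-0.17 to 1.35), among others.

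Macrophage markers were higher beside Stab1 and Scarb2. Of 16 listed genes, 13 were tested, and 10 rose, 0 fell and 3 did not pass (median 1.14 log2). Lyz2, the macrophage lysozyme, rose by 2.00 ± 0.14 (SE, adjusted p = 5.37e-05 in limma), Mpeg1, a pore-forming protein of macrophages, by 1.61 ± 0.14 (adjusted p = 2.07e-04), and the complement gene C1qc by 1.41 ± 0.13 (adjusted p = 2.4e-04). The list's mean level stood at -0.08, -0.06 and 0.14 log2 from the wild type mean on wild type replicates 1, 2 and 3. On null replicates 1, 2 and 3 it stood at 1.10, 1.21 and 1.07. The groups did not overlap, and on this list the null arrays were alike. Taken relative to the list's mean on each array, the second probe of Stab1 differed by 0.06 log2 between genotypes and that of Scarb2 by -0.52. The remaining tested member probes differed by -0.96 to -0.72. An exact permutation test gave a two-sided p of 0.5 for the second probe of Stab1 and 0.1 for each of the others. Adjusted over the 6 probes, the latter became 0.12. Whether the macrophage shift has a part in the rise of Stab1 and Scarb2 was not tested.

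Markers of other cells that carry these receptors moved less or unevenly. Of 13 endothelial markers, 11 were tested, and 1 rose, the junction gene Cldn5 by 1.07 log2, with a list median of 0.05. That call ended when replicate 2 or 3 of the wild type, or replicate 3 of the null, was left out. After Cldn5 the smallest p belonged to the endothelial surface genes Emcn and Pecam1, at -0.50 and 0.40 without passing. Of 7 markers of liver-resident macrophages, 2 were tested, and Clec4f, Timd4, Vsig4, Marco and Cd5l did not pass the detection filter. Folr2, a folate receptor of resident macrophages, rose by 0.89 ± 0.15 (SE, adjusted p = 0.00677 in limma) and Cd163, the haemoglobin receptor, differed by 0.15 (adjusted p = 0.68). Of 12 hepatocyte markers, 8 were tested and 5 rose (median 1.87). Ttr, the thyroid hormone carrier of plasma, rose by 3.73 ± 0.72, with Trf, the iron carrier, at 0.87 and Ahsg, the plasma protein fetuin-A, at 2.89. Each of these calls ended without wild type replicate 1 or 2, and that of Trf also without null replicate 2. Their highest level was on null replicate 1, and without that array the list median was 1.105 and Ahsg differed by 1.90. Ahsg was detected on 1 of 3 wild type and 3 of 3 null arrays, so it entered the test through the null group. The same held for Hpx, another of the 5 that rose, named after its value was seen. The size of their rise is uncertain, and their other tested probes, at 1.29 for Ahsg and 1.09 for Hpx, were not called. Fga and Serpina1c, named after their values were seen, did not pass but also entered the test through the null group. Every null array detected both, whereas Fga was undetected in wild type tissue and Serpina1c was seen on 1 array there. The list median, the list's level on each array and the count of tested genes include Ahsg, Hpx, Fga and Serpina1c. With trend and robust estimation 1 gene of the list was called. The part of these markers in the rise of Stab1 and Scarb2 was not tested.

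Fibroblast markers rose in 5 of 10 tested genes (median 0.66 log2). The collagen gene Col1a1 rose by 1.67, the matrix gene Lum by 1.24 and Col3a1 by 1.12, although the other probe of Col3a1 differed by -0.08. Of 11 lymphocyte markers, 5 were tested and 2 rose (median 0.56), the leukocyte actin-binding gene Coro1a by 1.46 and the T cell receptor chain Cd3e by 0.56. The call of Cd3e ended without any 1 array but null replicate 1. Cd2, a T cell surface gene, and Cd3g were each detected on 0 of 3 wild type and 3 of 3 null arrays. Both thus entered the test through the null group, and the list median includes them. Neither passed (adjusted p = 0.0517 for Cd2 and 0.093 for Cd3g in limma). Cd3g was named after its value was seen. Adipocyte markers were near 0 (median -0.05). Of 11 tested, 1 rose, the lipid droplet gene Cidec by 0.61, and 2 fell, Pparg and the glucose transporter Slc2a4, the latter by 0.67 on the log2 scale. The call of Cidec ended when replicate 1 or 2 of the wild type, or replicate 2 of the null, was left out, and that of Slc2a4 without any 1 array but wild type replicate 1 and null replicate 1. Ucp1, Cidea and Adipoq, the defining genes of brown adipocytes and adipocytes, were detected on all arrays (named to check the tissue label). Skeletal muscle markers passed in 0 of 10 tested genes (median -0.44).

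The genes whose pattern over the 6 arrays was most like that of the called members were named by a fixed measure, Pearson's r of the log2 values. For the second probe of Stab1 these were C1qc, Lbh and Prcp, at r of 0.998 each, and 413 of 15000 compared probes reached 0.95. For the second probe of Scarb2 these were Saraf, Pla2g12a and Mpeg1, at r of 0.997, 0.996 and 0.996, and 351 of 15001 reached 0.95. C1qc is a complement gene and Lbh a transcription cofactor. Saraf is a regulator of store-operated calcium entry, and its own difference of 0.36 did not pass (adjusted p = 0.092 in limma). With the genotype means removed, r lay between 0.882 and 0.936 for the genes of Stab1 and between 0.866 and 0.929 for those of Scarb2. These values come from the same 6 arrays by which the genes were picked, so they are no separate sign of likeness.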

How the data were processed

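RNA of brown adipose tissue was measured on 6 Illumina bead arrays of 1 colour, 3 per genotype. The authors deposited a table of log2 values, and limma is named without a version in the submitters' processing notes. How it was applied is not stated. When recomputed from the scanner table, neqc (background from detection p, quantile normalisation) with an offset of 50 came within 0.024 log2 of every deposited log2 value, so scale, centring and direction are known. Column medians were 5.92 to 5.93. The deposited scanner table holds intensities, not normalised, and detection p-values, per the file headers. The log2 table was the main measure. Its offset shrinks the differences of dim probes.

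Of 45267 probes, 34875 had 1 symbol in the platform annotation, 18 several and 10374 were not listed. Gene IDs of 34797 were found in RefSeq's table (GRCm38.p6), used for names and neighbours. Probes detected (p under 0.05) on 3 or more arrays were compared with lmFit and eBayes (limma 3.58.1, R 4.3.3). P-values were adjusted by Benjamini-Hochberg over all tested probes, and adjusted p of genes and probes are limma's, apart from those named as from exact permutation tests. Differences are null minus wild type. A probe detected on no array of a genotype, and on every array of the other, gets a bound against the lowest signal among detected probes. Genes of lists were taken by their brightest tested probe. The fit was tested on simulated data of 17912 probes, with 50 changed at each size. A change of 0.5 log2 was recovered in 6%, of 1 in 74%, of -1 in 76% and of 2 in 100%. Fewer probes were changed in the simulation than the 1470 called in the data. Recovery depends on the share of probes that change, so it may differ in the data. A difference near 0.5 log2 that did not pass may still be a missed change.

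The members and lists were chosen with earlier results of these data known. Named genes are all member probes, up to 3 genes of smallest p per list, ligands or partners of called members, and the 3 genes most like the top 2 called members, leaving out clone and gene-model symbols. Other names are marked in the text as added. Alternatives were neqc with offsets 16 and 50, no background correction (pseudocount 1), median scaling, other detection filters, trend and robust estimation, array weights, a replicate block and each array left out. The number of arrays limits the precision.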

Additional observations from a re-analysis of the deposited data

How the results depend on the processing

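Of the 15 alternatives, none called a member probe lower, and the number called higher was 2 in 11 of them, 3 with median scaling and with array weights, and 1 to 2 with 1 array left out. The second probe of Scarb2 ranged from 0.569 to 0.6501 log2 with 1 array left out, and the second probe of Stab1 from 1.123 to 1.231. The sign turned for the first probe of Scarb2 (-0.0204 without null replicate 2, in a range of -0.0204 to 0.2877 with 1 array left out) and for the median of the muscle list (0.2534 without null replicate 3, in a range of -0.9072 to 0.2534). List medians near 0 also turned, with lowest and highest values of -0.0216 and 0.2625 for Cd36 partners, -0.0231 and 0.2046 for endothelial markers and -0.1384 and 0.0806 for adipocyte markers. The cause was not tested. The count of all called probes was 1470, against 849 without the detection filter, where more probes were tested, 2626 with array weights, and 670 to 1341 with 1 array left out, lowest without replicate 2 of the wild type. Rises made up 65.3% of called probes and 85.6% with median scaling, where the median of all tested probes was 0.08 log2 in place of -0.04. The shared replicate numbers gave no clear sign of pairing, though so few arrays cannot exclude it. Deviations of same-numbered arrays correlated at 0.122, -0.0217 and 0.0512, and not every array correlated best with its own number. With the replicate block, 1326 probes and the same number of member probes, 2, were called (adjusted p = 0.0311 for Scarb2 and 0.00313 for Stab1). Genes that rose numbered 9 to 12 among macrophage markers, 2 to 6 among other scavenger receptors, 2 to 4 among lysosomal partners, 1 to 4 among ligands, 0 to 4 in HDL handling and 0 to 7 among hepatocyte markers. Signal near background limits Scarb1, Cd36 and the 5 members with no detected or 1 detected reading.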

Other observations

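Of 2570 tested probes without a name in the annotation, limma called 75 lower and 137 higher in the null arrays, and 10 of them were lower by at least 1 log2, the largest fall being 1.43 (a difference of -1.43). Whether any of them reads Cd36 cannot be said from the tables used here.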
